A study of Mus musculus with 27 samples.

Results

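Sites of H3K4me1 called in adult blood stem cells but not in adult blood progenitors, and the reverse, were compared gene by gene. Every H3K4me1 peak of adult hematopoietic stem cells (HSC) was set against every H3K4me1 peak of adult hematopoietic progenitor cells (HPC). A site that overlapped the other cell type by 1 bp or more was called shared, and otherwise HSC-only or HPC-only. The comparison held 270073 sites, 143571 in HSC and 126502 in HPC, of 901169 sites in the 8 peak lists. Of the HSC sites, 22.6% (32447 sites, 95% Wilson interval 22.4 to 22.8) were HSC-only. Of the HPC sites, 24.4% (30895 sites, 24.2 to 24.7) were HPC-only. The 111124 shared HSC sites and 95607 shared HPC sites merged into 85286 loci.

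Histone H3 carrying 1 methyl group on lysine 4 lies at enhancers, active or poised, and on the flanks of promoters. Acetylation of lysine 27 (H3K27ac) is added at enhancers and promoters that are in use. HSC renew themselves and give rise to all blood cells, and HPC are their more rapidly dividing descendants, which start on the myeloid, lymphoid, erythroid and megakaryocyte paths.

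The cells came from mice on the B6 background, with no further allele or treatment named in the labels. Adult cells were taken at 8 weeks of age and fetal cells at E16.5, in late gestation. They were sorted and fixed, and chromatin was profiled by ChIPmentation, in which Tn5 transposase tags antibody-bound chromatin. The lists pooled 4 adult HSC, 3 adult HPC, 3 fetal HSC and 3 fetal HPC libraries for H3K4me1, with 3 adult HPC libraries for H3K27ac. A further adult HPC list of 3 libraries bears conflicting labels (titled H3K27me3, but annotated as H3K27ac) and is named the second K27 set here. Neither the sorting markers nor the tissue of origin is given in the sources used here. With 1 pooled list per group, the spread between libraries cannot be measured and no test across samples was possible, so intervals cover counting error only. In a sorted population, a mark in fewer cells and a weaker mark in each cell cannot be told apart.

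Library depth is unknown. The HSC list covered 155 Mb with a median site of 642 bp, and the HPC list 176 Mb with a median of 864 bp. In all, 128 Mb lay in both, which was 82.9% of the HSC bases and 72.9% of the HPC bases. The HPC list held 3 sites on chromosome Y, all HPC-only, and the HSC list held 0, and the sex of the mice is not given in the labels. A missing peak is not a missing mark, since calling depends on depth.

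Promoter windows that lay under a peak of 1 cell type are shown first, because there the difference falls next to a gene's own start. Each window runs from 250 bases before to 50 bases after the gene start, on the gene's strand, from RefSeq for GRCm38. Capitals mark the bases under the HSC-only or HPC-only peak, and lower case marks bases outside it. Among the 380 genes of the lists with a window, 5 had a window on an HSC-only peak (1.32%) and 13 on an HPC-only peak (3.42%), where the backgrounds over all 17492 genes were 2.8% and 2.14%. The HSC-only windows were those of Hbb-bs and Add2 of the erythroid list, Cavin2 of the platelet list, Hoxb8 and Hoxa5. Of these 5, Hbb-bs had the peak with the highest fold over background (3.35) and Hoxa5 the lowest. The 4 shown were chosen after their values were seen and not by highest fold. Hoxb8 and Hoxa5, homeobox transcription factors of the Hox clusters, had HSC-only peaks. Within 1 kb of the start, however, Hoxb8 had peaks of both cell types, whereas the other 3 genes shown had a peak of 1 cell type alone. The Hoxb8 window is chr11:96281655-96281954 on the plus strand, and the Hoxa5 window is chr6:52204538-52204837 on the minus strand.
Hoxb8: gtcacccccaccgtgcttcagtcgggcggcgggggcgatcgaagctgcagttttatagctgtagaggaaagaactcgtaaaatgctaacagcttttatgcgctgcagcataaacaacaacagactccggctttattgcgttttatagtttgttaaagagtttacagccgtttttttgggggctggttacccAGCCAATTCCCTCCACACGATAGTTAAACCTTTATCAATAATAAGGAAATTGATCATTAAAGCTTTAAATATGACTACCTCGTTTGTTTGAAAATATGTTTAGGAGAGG
Hoxa5: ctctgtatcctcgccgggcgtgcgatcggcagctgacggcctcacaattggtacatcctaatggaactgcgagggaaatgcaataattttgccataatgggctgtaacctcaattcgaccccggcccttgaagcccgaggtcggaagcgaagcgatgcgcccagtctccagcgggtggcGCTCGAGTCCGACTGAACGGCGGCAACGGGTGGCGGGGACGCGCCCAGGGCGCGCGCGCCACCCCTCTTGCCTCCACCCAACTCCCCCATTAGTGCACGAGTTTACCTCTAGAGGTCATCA
Siglech, a surface lectin of plasmacytoid dendritic cells, and Ccr9, a chemokine receptor that guides lymphoid progenitors to the thymus and gut, had HPC-only peaks. The Siglech window is chr7:55767934-55768233 and the Ccr9 window is chr9:123766961-123767260, both on the plus strand.
Siglech: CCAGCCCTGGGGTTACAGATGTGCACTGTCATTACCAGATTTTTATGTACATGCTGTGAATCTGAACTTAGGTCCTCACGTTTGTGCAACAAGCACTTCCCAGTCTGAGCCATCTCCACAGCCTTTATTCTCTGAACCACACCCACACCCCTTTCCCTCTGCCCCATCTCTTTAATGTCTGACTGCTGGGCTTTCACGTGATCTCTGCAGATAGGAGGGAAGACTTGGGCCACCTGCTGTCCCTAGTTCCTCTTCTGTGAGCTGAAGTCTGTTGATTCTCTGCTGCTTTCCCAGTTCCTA
Ccr9: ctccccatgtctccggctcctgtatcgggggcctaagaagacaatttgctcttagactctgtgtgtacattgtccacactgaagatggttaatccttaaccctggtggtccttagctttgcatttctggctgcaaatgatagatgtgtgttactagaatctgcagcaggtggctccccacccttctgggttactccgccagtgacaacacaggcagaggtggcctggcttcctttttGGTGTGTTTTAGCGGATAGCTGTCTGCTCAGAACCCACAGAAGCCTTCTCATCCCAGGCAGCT
The peak at Hoxb8 covered 109 of the 300 bases and had a fold of 2.90 over background, as the authors' peak caller wrote it. The Hoxa5 peak covered 121 bases at a fold of 2.26. The Siglech peak covered all 300 bases at a fold of 2.72, and the Ccr9 peak covered 63 bases at a fold of 2.72. The Hoxb8 and Hoxa5 peaks overlapped sites of both fetal HSC and fetal HPC, whereas the Siglech and Ccr9 peaks overlapped a fetal HPC site and no fetal HSC site. None of these 4 peaks overlapped a site of the adult HPC H3K27ac list, and the Hoxb8 peak overlapped a site of the second K27 set. Among the windows not printed, the HSC-only peak at Hbb-bs and the HPC-only peaks at Ifit3 and Hmga2 did overlap an H3K27ac site. The 4 windows held 13, 29, 2 and 4 CpG dinucleotides in the order printed, and the median over all 21263 windows was 13.

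Sites found in 1 cell type were weak and narrow for their list. Of the strongest 20000 HSC sites by the authors' −log10 p, 82 were HSC-only, or 0.41%, and of the strongest 20000 HPC sites 92 were HPC-only, or 0.46%. The share of HSC-only sites was 0.272% in the strongest 10% of the HSC list and 51.0% in the weakest 10%. In the HPC list the corresponding HPC-only shares were 0.190% and 58.4%. By this rule and by count, cell-type-only sites were mostly weak, and nearly all strong sites were shared. A shared site can still differ in level between the cell types, which was not measured. HSC-only sites had a median width of 315 bp against 841 bp for shared HSC sites, and a median fold of 2.44 against 3.31. HPC-only sites had a median width of 411 bp against 1143 bp, and a median fold of 2.52 against 3.67. A wider site meets the rule of 1 bp of overlap more easily, so the difference in width is in part built into the classes. Near the threshold, 2139 shared HSC sites overlapped HPC sites by under 100 bp (median fold 2.35), and 2138 HSC-only sites lay within 100 bp of an HPC site (2.42). The corresponding HPC counts were 1595 (2.42) and 1732 (2.45). Inside gene bodies lay 66.5% of HSC-only and 53.9% of HPC-only sites, against 63.8% and 64.3% of the shared sites.

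**Figure D1:**
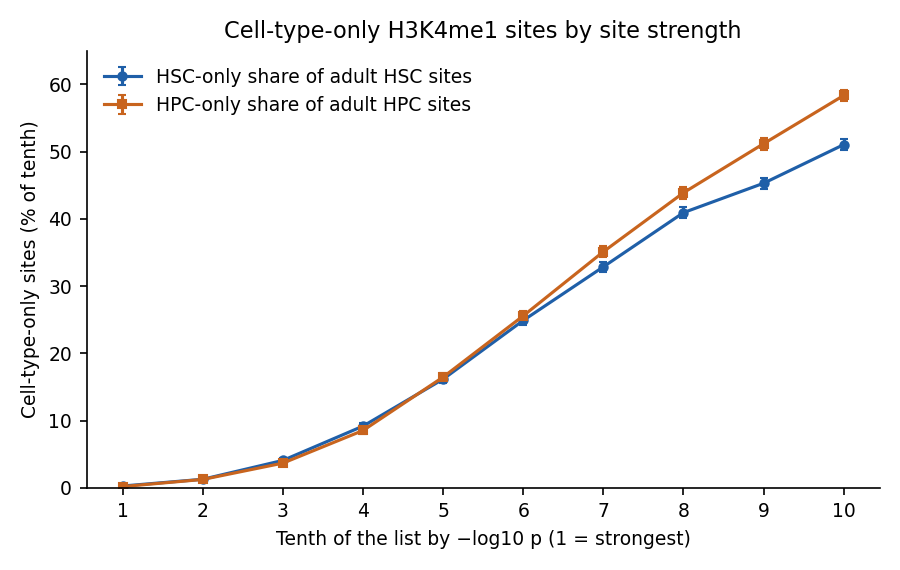
Share of cell-type-only sites (%, vertical axis) in 10 equal bins of the adult HSC list (blue circles) and the adult HPC list (orange squares), ordered by −log10 p with bin 1 the strongest; bars are 95% Wilson intervals. The share climbs from 0.272% to 51.0% in HSC and from 0.190% to 58.4% in HPC.

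The labels were checked at genes that mark the sorted cells. Sites were assigned to the nearest protein-coding gene within 100 kb, which left 134530 HSC and 118235 HPC sites. In this set 22.2% of HSC sites were HSC-only and 23.8% of HPC sites were HPC-only, and these 2 shares are the background for the counts by gene. Slamf1, which encodes the HSC surface marker CD150, held 15 HSC sites, 6 of them HSC-only, and 9 HPC sites, none HPC-only. Fgd5, a guanine exchange factor used as an HSC reporter gene, held 22 HSC sites with 13 HSC-only and 11 HPC sites with 0 HPC-only. Tek, the angiopoietin receptor, held 12 HSC sites with 8 HSC-only and 3 HPC sites with 0 HPC-only. These genes lay on the HSC side. Flt3, the receptor gained as HSC become multipotent progenitors, held 15 HSC sites with 1 HSC-only and 21 HPC sites with 11 HPC-only, of which 6 overlapped H3K27ac. Cd48, a marker absent from the HSC surface, held 8 HSC sites with 0 HSC-only and 11 HPC sites with 7 HPC-only. Both lay on the HPC side. Procr, which encodes the HSC surface receptor EPCR, had 9 sites in each cell type and all were shared. Hlf, a transcription factor of HSC, had 1 of 11 HSC sites HSC-only and 1 of 16 HPC sites HPC-only, so these 2 markers did not separate the lists. Kit, the stem cell factor receptor carried by HSC and early progenitors, had 15 of 66 HSC sites HSC-only and 13 of 57 HPC sites HPC-only.

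Several genes of stem cell identity held many more HSC-only than HPC-only H3K4me1 sites. Mecom, a zinc finger transcription factor needed for HSC self-renewal (chr3:29951296-30509759), held 168 HSC sites, 95 of them HSC-only. The same gene held 91 HPC sites, 5 of them HPC-only. Mllt3, a chromatin reader that maintains human HSC (chr4:87769925-88033407), held 135 HSC sites with 81 HSC-only and 59 HPC sites with 1 HPC-only. Prdm16, a zinc finger regulator of HSC maintenance (chr4:154316122-154637360), held 81 HSC sites with 47 HSC-only and 52 HPC sites with 2 HPC-only. Zfp521, a zinc finger cofactor of early hematopoietic cells, held 61 HSC sites with 32 HSC-only and 33 HPC sites with 3 HPC-only. Meis1, a homeobox cofactor, held 54 HSC sites with 21 HSC-only and 57 HPC sites with 5 HPC-only. None of the HSC-only sites at Mecom was among the strongest 20000 HSC sites, and their highest fold was 3.99.

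Of the 32 genes listed for HSC identity, 16 had at least 3 more HSC-only than HPC-only sites and 3 had at least 3 more HPC-only sites. The backgrounds were 11.6% and 10.9% of the 17321 coding genes with an adult site, not matched for gene length or number of sites. Summed over the list, 42.5% of HSC sites were HSC-only (39.7 to 45.4) and 12.1% of HPC sites were HPC-only (9.97 to 14.7). Without Mecom, 387 of 966 HSC sites (40.1%) were HSC-only and 84 of 642 HPC sites (13.1%) were HPC-only. Without the 3 members with the most HSC-only sites, 223 of 730 HSC sites (30.5%) were HSC-only and 83 of 553 HPC sites were HPC-only. The 3 genes on the other side were transcription factors that blood progenitors also use, namely Etv6 (5 HSC-only and 15 HPC-only sites), Runx1 (13 and 18) and Lmo2 (2 and 5). Among the strongest 20000 sites no list held more than 1 HSC-only or 3 HPC-only sites, so the counts by list rest on weaker sites. The promoters of the list showed little of this difference. Of its 23 genes with a known start, 21 had a peak of both cell types within 1 kb of the start, 0 had an HSC peak alone and 1, Prdm16, had an HPC peak alone.

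HSC-only sites also lay in runs. A run was 3 or more neighbouring sites of 1 cell type with gaps of at most 20 kb and no site of the other cell type between them. Mllt3 held a run of 14 HSC-only sites over 19.2 kb (chr4:87837480-87856652), Nedd4, a ubiquitin ligase, one of 13, and Plxdc2, a membrane protein, one of 12. In the fetus the mark at the Mllt3 run was in both cell types, since 13 of its 14 sites overlapped fetal HSC and 12 overlapped fetal HPC sites. Of the 13 sites at Nedd4, 6 overlapped a fetal HSC site, 3 a fetal HPC site and 0 an adult HPC H3K27ac site. A run of 10 sites, chr16:93124399-93148138, had Runx1 as its nearest coding gene at 298325 bp. In all, 2166 runs held 24.8% of HSC-only sites and 1688 runs held 19.7% of HPC-only sites.

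**Figure D2:**
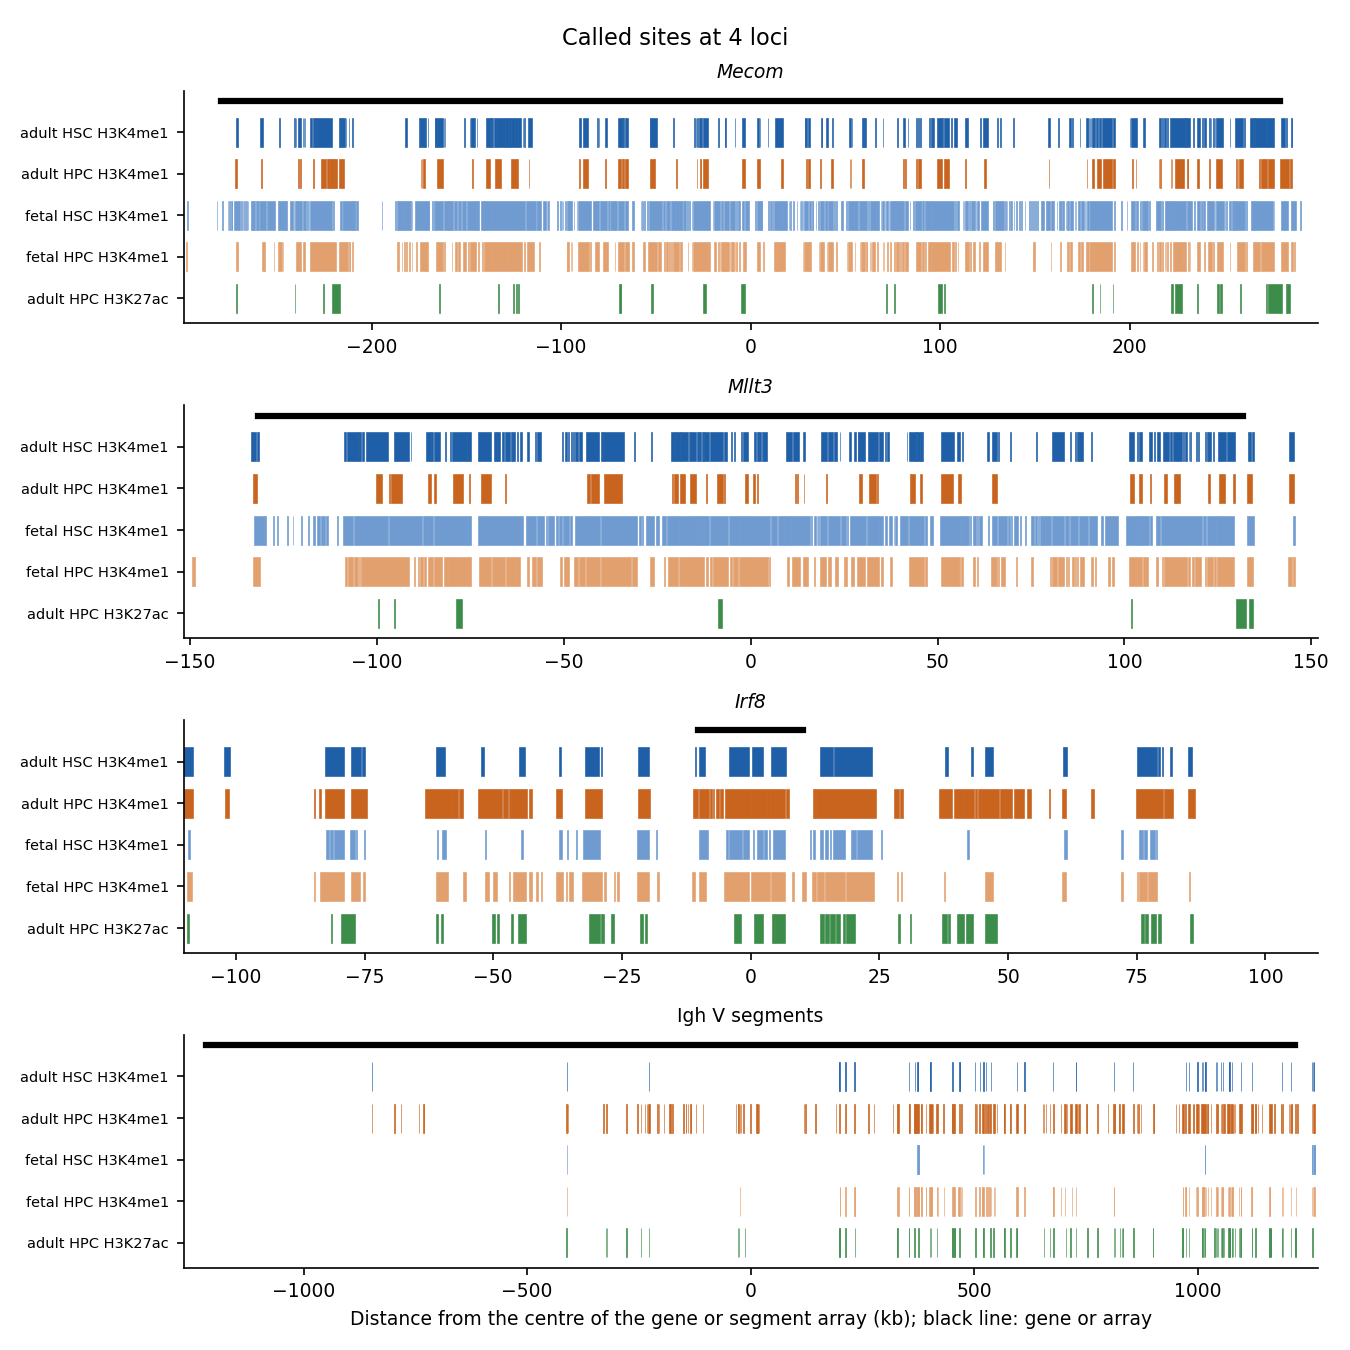
Called sites (coloured bars) at Mecom, Mllt3, Irf8 and the Igh V segments against distance from the centre of the gene or array (kb, horizontal axis), with a row each for adult HSC, adult HPC, fetal HSC and fetal HPC H3K4me1 and for adult HPC H3K27ac; the black line is the gene or array. HSC rows are fuller at Mecom (168 adult HSC and 91 adult HPC sites), and HPC rows are fuller at Irf8 (21 and 37) and at the Igh V segments (46 and 191).

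Genes outside the stem cell list also ranked high on the HSC side. Angpt1, the ligand of the receptor encoded by Tek, held 157 HSC sites with 64 HSC-only and 100 HPC sites with 8 HPC-only. Sgms1, a sphingomyelin synthase, held 98 HSC sites with 44 HSC-only and 68 HPC sites with 0 HPC-only. Csgalnact1, an enzyme of chondroitin sulfate synthesis, had 47 HSC-only and 6 HPC-only sites. Tgfbr3, a co-receptor for TGF-beta, had 43 and 6, Plxdc2 had 37 and 0, and Thsd4, an extracellular matrix protein, had 36 and 2. Long genes hold more sites, and the genes with 3 or more extra HSC-only sites had a median length of 71.1 kb, against 47.2 kb on the HPC side and 17.3 kb for the rest.

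Genes of the platelet lineage lay on the HSC side as well. Over the 26 genes listed for megakaryocytes and platelets, 46.1% of HSC sites were HSC-only (41.0 to 51.3) and 14.8% of HPC sites were HPC-only (10.9 to 19.8), with 7 genes on the HSC side and 1 on the HPC side. Without the member with the most HSC-only sites, the shares were 32.0% and 16.9%. Vwf, the platelet adhesion protein von Willebrand factor, held 38 HSC sites with 15 HSC-only and 22 HPC sites with 1 HPC-only. Cavin2, a caveola coat protein of platelets, held 13 HSC sites with 10 HSC-only and 3 HPC sites with 0 HPC-only. The gene on the HPC side was Plek, the platelet kinase substrate pleckstrin, with 1 HSC-only and 6 HPC-only sites. Erythroid genes did not share this pattern, with 36 of 163 HSC sites HSC-only, 30 of 150 HPC sites HPC-only and 2 genes on each side of 24 with a site. Ank1, the red cell ankyrin, had 6 HSC-only and 1 HPC-only sites, and Sptb, the red cell spectrin beta chain, had 2 and 5.

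The Hox clusters lay on the HSC side, while genes of quiescence were mixed. Over the 21 genes of Hox clusters A and B, 38 of 102 HSC sites were HSC-only (37.3%) and 5 of 68 HPC sites were HPC-only (7.35%). Hoxa3 had 10 HSC-only and 1 HPC-only sites, and Hoxb3 had 7 and 0. For the 22 genes of quiescence and dormancy the shares were 27.8% and 19.1%, but without Angpt1 they were 22.6% and 22.4%, so this list rested on 1 gene. Rarb, a retinoic acid receptor, had 20 HSC-only and 1 HPC-only sites. Tgfbr2, a TGF-beta receptor subunit, had 4 and 14, and Foxo3, a forkhead factor, had 1 and 12, both on the other side. The 55 developmental regulators that are silent in blood had 25.9% HSC-only and 12.4% HPC-only sites. Nkx6-1, a homeobox gene of pancreas and neural tube, had 9 HSC-only and 0 HPC-only sites.

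Sites for adhesion and niche signalling were mixed, at 26.0% HSC-only and 21.2% HPC-only. Robo1, a guidance receptor, had 11 HSC-only and 0 HPC-only sites, Jam3, a junction molecule of HSC, had 10 and 0, and Jag1, a Notch ligand, had 7 and 0. Cx3cr1, a chemokine receptor of monocytes, had 0 and 7.

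**Figure D3:**
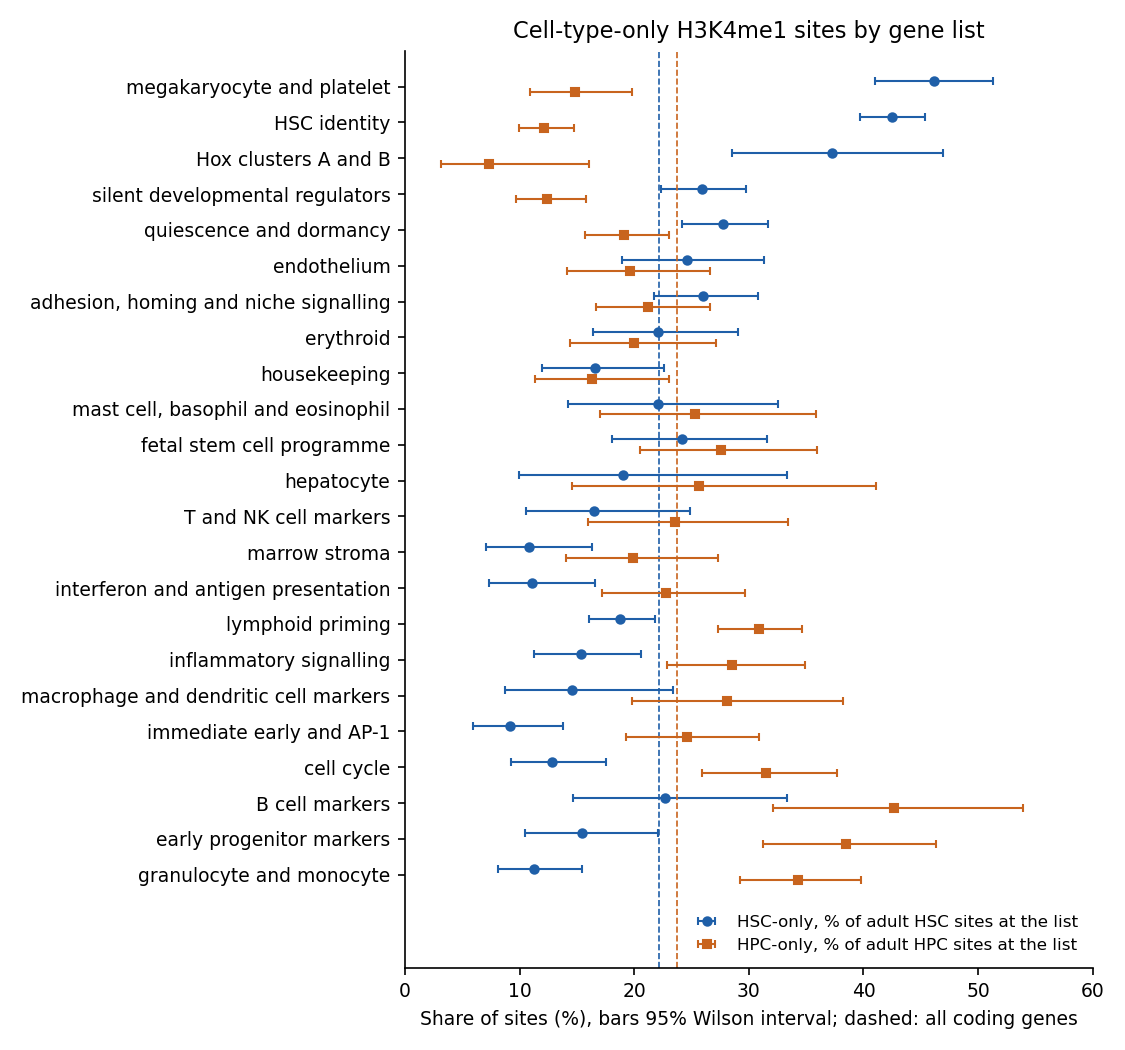
HSC-only share of adult HSC sites (blue circles) and HPC-only share of adult HPC sites (orange squares), in % with 95% Wilson intervals, for the 23 gene lists; dashed lines are all coding genes (22.2% and 23.8%). The megakaryocyte, HSC identity and Hox lists lie far to the right in blue, and the early progenitor, granulocyte and monocyte and B cell lists in orange.

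Among cell cycle genes, Cdk6 held the most HPC-only sites. Cdk6, the kinase that pairs with D-type cyclins to start the cell cycle (chr5:3341004-3531008), held 66 HPC sites with 36 HPC-only and 61 HSC sites with 2 HSC-only. Of the 36, 6 overlapped an adult HPC H3K27ac site. Ccnd2, cyclin D2, held 22 HPC sites with 8 HPC-only and 16 HSC sites with 0 HSC-only. Ccnd3, cyclin D3, went the other way with 9 HSC-only and 1 HPC-only sites. Over the 27 cell cycle genes, 31.5% of HPC sites were HPC-only (25.9 to 37.7) and 12.9% of HSC sites were HSC-only (9.25 to 17.6). Without Cdk6 the shares were 22.7% and 16.0%, and by gene 2 lay on the HSC side and 3 on the HPC side, so the HPC share of this list came largely from Cdk6. Within 1 kb of the Cdk6 start the only peak was an HSC one. That peak could still overlap an HPC site farther out, and the 300-base Cdk6 window was not on an HSC-only peak.

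Granulocyte and monocyte genes lay on the HPC side. Of 29 genes with a site, 13 lay on the HPC side and 1 on the HSC side. Summed, 34.3% of HPC sites were HPC-only (29.2 to 39.8) and 11.3% of HSC sites were HSC-only (8.10 to 15.5). Irf8, a transcription factor of monocytes and dendritic cells (chr8:120736358-120756694), held 37 HPC sites with 21 HPC-only and 21 HSC sites with 0 HSC-only. Every HSC site at Irf8 was thus also an HPC site. Cebpb, a C/EBP factor of emergency granulopoiesis, had 13 HPC-only sites, 6 of them with H3K27ac, and 5 HSC-only sites. Cebpa, which starts the myeloid programme, held 12 HPC sites with 5 HPC-only and 11 HSC sites with 0 HSC-only. Gfi1, a repressor needed for neutrophils, had 5 HPC-only and 0 HSC-only sites. Genes of mature granules had few sites of any kind. Elane, neutrophil elastase, had 2 HSC sites and 1 HPC site, all shared, and Mpo, myeloperoxidase, had 2 HPC-only of 3 HPC sites. The gene on the HSC side was Zeb2, a zinc finger repressor, with 17 HSC-only and 2 HPC-only sites.

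Lymphoid genes split by gene. Satb1, a chromatin organiser of early lymphoid cells (chr17:51736187-51833290), held 42 HPC sites with 28 HPC-only and 24 HSC sites with 2 HSC-only. Runx3, a T cell transcription factor, held 39 HPC sites with 19 HPC-only and 41 HSC sites with 1 HSC-only. Notch1, the receptor that commits cells to the T lineage, had 9 HPC-only and 1 HSC-only sites. Rora, a nuclear receptor of innate lymphoid cells, had 39 HSC-only and 15 HPC-only sites, and Tcf12, an E protein, had 24 and 6. Of the 24 genes listed for lymphoid priming, 10 lay on the HPC side and 4 on the HSC side, with 30.9% of HPC sites HPC-only (27.4 to 34.7) and 18.7% of HSC sites HSC-only (16.02 to 21.8). Early progenitor markers held 38.5% HPC-only (31.2 to 46.3) and 15.4% HSC-only sites (10.5 to 22.1), with 6 of 10 genes on the HPC side and 0 on the HSC side. Cd34, a sialomucin of progenitors, had 8 HPC-only and 2 HSC-only sites, and Cd27, a costimulatory receptor, had 5 and 0.

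Signal-responsive genes held few HSC-only sites. For the 20 immediate early and AP-1 genes, 24.6% of HPC sites were HPC-only, near the background of 23.8%, but 9.13% of HSC sites were HSC-only, below the background of 22.2%. For inflammatory signalling the shares were 28.5% and 15.4%, and for interferon and antigen presentation 22.8% and 11.1%. Il1r1, the interleukin 1 receptor, held 27 HPC sites with 17 HPC-only and 15 HSC sites with 1 HSC-only, and 8 of the HPC-only sites formed a run of 10.5 kb inside the gene. Tlr4, the receptor for bacterial lipopolysaccharide, went the other way with 9 HSC-only and 0 HPC-only sites. Irf1, an interferon-induced factor, had 10 HPC-only and 2 HSC-only sites, and Ifnar1, a type I interferon receptor chain, had 8 and 0.

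Further genes with many HPC-only sites were Maml3, a coactivator of Notch (44 HPC-only of 104 HPC sites and 4 HSC-only of 91 HSC sites), Slco3a1, an organic anion transporter (35 of 69 and 4 of 55), and Alk, a receptor tyrosine kinase (31 of 44 and 1 of 19). Rnf220, a ubiquitin ligase, had 32 HPC-only and 8 HSC-only sites, and Hecw2, another ubiquitin ligase, had 24 and 1. The longest HPC-only runs held 12 sites. The first overlapped both Camk1g, a calcium-dependent kinase, and the gene Lamb3, and the second lay near Gm4606. A run of 10 lay near Etv6 and a run of 8 lay in Tlr7, a receptor for viral RNA.

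**Figure D4:**
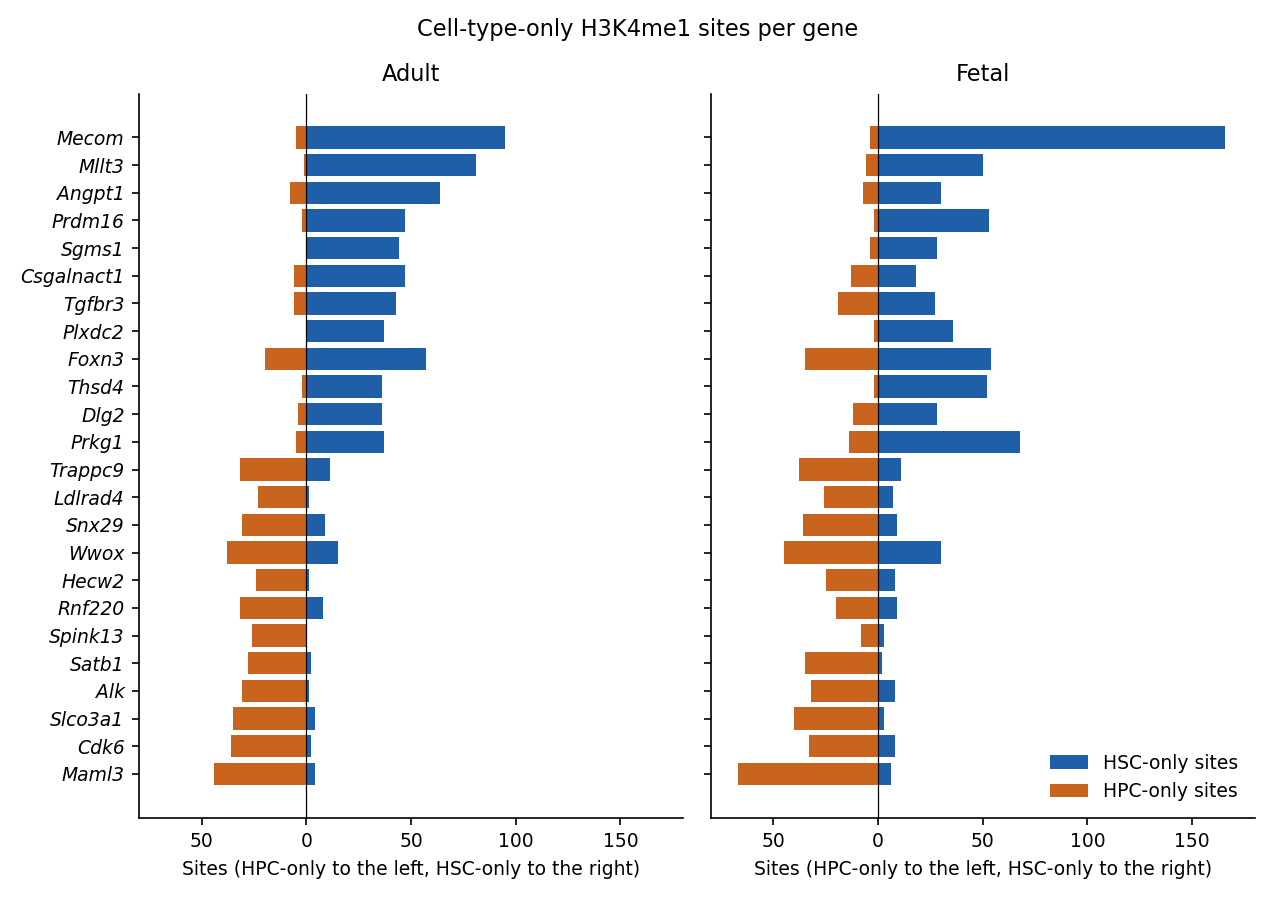
Number of HSC-only sites (blue, to the right) and HPC-only sites (orange, to the left) at 12 of the genes with the largest excess on each side in the adult, beside the fetal counts at the same genes. Mecom has 95 adult and 166 fetal HSC-only sites, and Maml3 has 44 adult and 67 fetal HPC-only sites.

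A wide HPC pattern lay over the antibody heavy chain locus. Igh builds antibody heavy chains in B cells by joining V, D and J segments, and in pro-B cells its V segments become accessible. Across the 183 annotated Igh V segments (chr12:113572929-116009954, 2.44 Mb), adult HSC had 46 sites, 0 of them HSC-only. Adult HPC had 191 sites, 154 of them HPC-only, of which 33 overlapped H3K27ac and 9 were among the strongest 20000 HPC sites. Of the 154 HPC-only sites, 40 lay on a V segment and the rest lay between segments. The highest fold among them was 6.83, and 121 of the 154 lay in 24 runs. Fetal lists ran the same way, with 12 fetal HSC and 107 fetal HPC sites. The D, J and constant segments next to them (chr12:113256204-113526809) had 16 HSC sites, 0 HSC-only, and 36 HPC sites, 27 HPC-only. The Igk V segments of the light chain had 8 HSC and 5 HPC sites, so the pattern was not found at both antibody loci. The V segments of Tcra had 16 HSC-only of 84 HSC sites and 28 HPC-only of 83 HPC sites, and those of Tcrb 5 of 47 and 26 of 55. These loci were looked at after the longest runs had been seen. V segments are near-identical copies in part, and how reads that match several copies were counted is not given in the sources used here.

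Markers of other cells were read beside this result. Over the 14 B cell markers, 42.7% of HPC sites were HPC-only and 22.7% of HSC sites were HSC-only, with 2 genes on the HPC side and 1 on the HSC side. The total was 75 sites in each cell type. Blnk, a B cell adaptor, had 7 HPC-only and 0 HSC-only sites, Blk, a B cell kinase, had 6 and 2, and Pax5, which fixes B cell identity, had 0 and 5. The defining gene Cd79a, a B cell receptor chain, had 0 HPC-only sites, with 2 HPC and 2 HSC sites. Macrophage and dendritic cell markers had 28.1% HPC-only and 14.6% HSC-only sites, with 4 of 16 genes on the HPC side. T and NK cell markers had 21 of 89 HPC sites HPC-only and 17 of 103 HSC sites HSC-only, and hepatocyte genes 10 of 39 and 8 of 42. The shares were 19.9% and 10.9% for marrow stroma genes and 25.3% and 22.1% for mast cell, basophil and eosinophil genes. Endothelial genes had 19.6% HPC-only and 24.6% HSC-only sites. The part of other cells in these results was not tested. Housekeeping genes had 16.3% and 16.6%, both below the background, and the fetal stem cell programme had 27.6% and 24.2%.

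H3K27ac in adult HPC, a mark that did not define the sites, was found more often on HPC-only than on HSC-only sites. It lay on 11.1% of HPC-only sites (10.8 to 11.5) and on 5.05% of HSC-only sites (4.82 to 5.30), a difference of 6.08 points (Newcombe interval 5.65 to 6.50). Shared sites carried it far more often, at 44.6% of HSC and 46.8% of HPC sites. The difference was larger among strong sites. In the strongest 25% of each list, 47.7% of HPC-only and 7.03% of HSC-only sites carried H3K27ac. The series holds no H3K27ac library of HSC, so the reverse comparison could not be made. The second K27 set lay on 1.56% of HSC-only and 0.566% of HPC-only sites, against 1.51% and 1.66% of shared HSC and HPC sites. That set held 576 of 54293 sites with a −log10 q of at least 5.

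Fetal cells of the same 2 types, also not used to define the sites, ran in the same direction as adult ones. Of the adult HSC-only sites, 56.4% overlapped a fetal HSC site and 45.3% a fetal HPC site, a difference of 11.1 points (10.4 to 11.9). Of the adult HPC-only sites, 39.7% overlapped a fetal HSC site and 56.7% a fetal HPC site, a difference of −17.0 points (−17.7 to −16.2). The fetal lists differed in size, with 231188 HSC sites over 176 Mb and 177310 HPC sites over 200 Mb. Shared adult HSC sites overlapped fetal HSC in 80.6% and fetal HPC in 84.1%, and shared adult HPC sites in 83.0% and 84.4%. Counted as sites found in 1 fetal cell type alone, adult HSC-only sites met fetal HSC alone in 16.8% and fetal HPC alone in 5.69%. Adult HPC-only sites met fetal HSC alone in 4.19% and fetal HPC alone in 21.2%. A fetal site of neither kind was found at 37.9% of adult HSC-only and 39.1% of adult HPC-only sites, against 11.8% and 11.1% of shared sites.

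**Figure D5:**
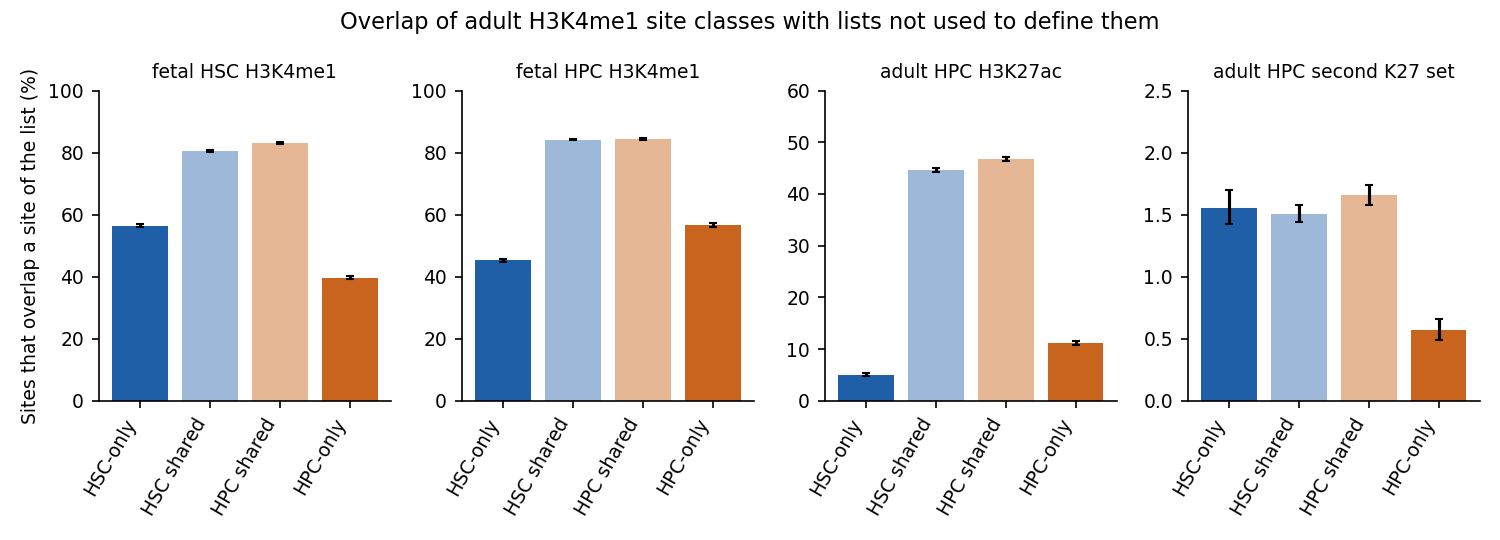
Share of each class of adult H3K4me1 site (%, vertical axis, with 95% Wilson intervals; the scale differs between panels) that overlaps a fetal HSC or fetal HPC H3K4me1 site, an adult HPC H3K27ac site or a site of the second K27 set. HSC-only sites meet fetal HSC more often than fetal HPC sites (56.4% and 45.3%), HPC-only sites the reverse (39.7% and 56.7%), and H3K27ac lies on 5.05% and 11.1% of them.

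By gene, 2005 coding genes lay on the adult HSC side and 1883 on the adult HPC side. Of the 2005, 61.9% also lay on the fetal HSC side and 5.49% on the fetal HPC side, where the backgrounds over all genes with an adult site were 19.4% and 11.9%. Of the 1883, 50.8% lay on the fetal HPC side and 10.7% on the fetal HSC side. Mecom had 166 fetal HSC-only and 4 fetal HPC-only sites, Mllt3 had 50 and 6, and Prdm16 had 53 and 2. Cdk6 had 8 and 33, Satb1 had 2 and 35, and Irf8 had 5 and 16. Over the HSC identity list, 652 of 1864 fetal HSC sites (34.98%) were HSC-only and 136 of 1222 fetal HPC sites (11.1%) were HPC-only, where 24.7% and 23.8% were the fetal backgrounds.

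At promoters the cell types differed at few genes. Within 1 kb of the start of 17492 genes, 415 (2.37%) had an HSC peak alone and 365 (2.09%) an HPC peak alone. Peaks of both lay at 11244 genes and of neither at 5468. Unlike an HSC-only or HPC-only site, a peak alone within 1 kb could still overlap a site of the other cell type farther out. H3K27ac of adult HPC lay at 30.8% (26.6 to 35.4) of promoters with an HSC peak alone. It lay at 45.8% (40.7 to 50.9) of those with an HPC peak alone and 81.3% of those with both. The second K27 set lay at 21.9% (18.2 to 26.2) of promoters with an HSC peak alone. It lay at 2.19% (1.11 to 4.26) of those with an HPC peak alone, 6.38% of those with both and 6.13% of those with neither. In the lists, the genes of lymphoid priming with an HPC peak alone were Ccr9, Rora, Gata3, the T cell master regulator, and Dntt, the enzyme that adds bases at V(D)J joints. No HPC-only site was assigned to Dntt. Those of the cell cycle list with an HSC peak alone were Cdk6 and Mycn, a MYC family factor.

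Short motifs were counted on both strands of the 300-base windows. Windows under an HPC-only peak (395) held the ETS core GGAAGT in 29.4% (25.1 to 34.0), against 23.2% (19.8 to 26.99) under an HSC-only peak (530) and 24.8% of all windows. The RUNX core TGTGGT was in 18.2% (14.7 to 22.3), 11.9% (9.40 to 14.9) and 14.97% in the same order. The GATA motif AGATAA was in 8.35%, 8.49% and 9.65%, the C/EBP motif TTGCNNAA in 9.87%, 11.1% and 10.2%, and the E-box CAGNTG in 58.7%, 54.5% and 48.6%. No motif overlaps were removed. The intervals of HSC-only and HPC-only windows overlapped for all 5 motifs. No interval of the difference was computed, and overlap of separate intervals does not show that the shares were equal.

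The few strong sites of 1 cell type were listed for both lists. The strongest HPC-only site by both −log10 p and fold was chr7:78718045-78722817, with a fold of 7.53, and overlapped fetal HPC and H3K27ac sites but no fetal HSC site. It was assigned to Mrpl46, a mitochondrial ribosomal protein, at 52524 bp. The next, chr12:115460339-115461709, lay in the Igh V region with a fold of 6.83. The third, chr12:100987125-100990657, lay in Ccdc88c, a signalling scaffold, with a fold of 6.73. By fold, the strongest HSC-only site was chr5:114173000-114173264 inside Acacb, an acetyl-CoA carboxylase, with a fold of 11.1 over 265 bp. By −log10 p the strongest HSC-only sites were 144 and 200 bp wide, at folds of 3.91 and 4.35, the first assigned to Gramd3 and the second inside Cntnap5c. These 3 narrow HSC-only sites all overlapped an adult HPC H3K27ac site, although no HPC H3K4me1 site was called there.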

How the data were processed

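H3K4me1 was measured by ChIPmentation in adult and fetal HSC and HPC. Per the submitters' processing notes, Novoalign and MACS2 were used with mm10 (GRCm38). Neither their versions nor the filter, thresholds and use of the 3 input libraries is given in the sources used here. The data deposited hold 1 pooled peak list per group, so replicates cannot be compared. Each peak carries the authors' ratio (fold over background), used only within its list. Within a list, sites were ranked by the authors' −log10 p and filtered by their −log10 q, a score from the same deposited lists.

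Here, sites were intersected (1 bp or more, python 3.11.15, numpy 2.4.6, pandas 2.3.3). The intersection was checked with bedtools and by recovering HSC sites deleted at random from a copy of the list. Sites were assigned to the nearest of 21887 RefSeq coding genes within 100 kb. RefSeq gave a start for 17492 of them (79.92%). Shares carry 95% Wilson intervals and differences Newcombe intervals (statsmodels 0.14.6). They cover counting error only. No test across samples was run.

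The members and the 23 gene lists (510 distinct names, 2 not matched) were chosen with earlier results of these data known. The plan counted lists in the strongest 20000 sites, but these held 82 HSC-only and 92 HPC-only sites, so all sites were used. The naming rule took per direction the 10 genes with most cell-type-only sites among the strongest 20000, the genes of the 6 longest runs, up to 4 members of each list, the 3 strongest sites, up to 6 list promoters and 7 marker genes. Most named genes were instead chosen from counts over all sites after their values were seen, as were the side of a gene (a difference of 3 sites) and the antigen receptor loci. Fetal H3K27ac, fetal second K27 and signal files were not used, and values of some genes are not reported here. Alternatives were the strongest 20000 sites, −log10 q of at least 5, a distance of 1 kb, 50% coverage, sites of at least 300 bp, equal list length and a 20 kb gene window.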

Additional observations from a re-analysis of the deposited data

How the results depend on the processing

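The excess of fetal HSC over fetal HPC overlap at adult HSC-only sites and its reverse at adult HPC-only sites kept their direction under all 6 alternatives, as did the H3K27ac difference. Their sizes moved. With the strongest 20000 sites, the HSC-only and HPC-only shares were 0.41% and 0.46%, the H3K27ac difference was 46.4 points, and the fetal differences at HSC-only and HPC-only sites were 24.4 and −41.3 points. In the same order the values were 13.8%, 18.1%, 8.04, 14.5 and −19.2 with a −log10 q of at least 5. They were 13.4%, 14.2%, 7.41, 15.8 and −19.3 when a site within 1 kb counted as shared, and 27.9%, 35.2%, 10.4, 9.55 and −14.8 when 50% of a site had to be covered. They were 15.4%, 20.1%, 7.56, 14.4 and −18.7 without sites under 300 bp. With equal list lengths they were 18.8%, 27.7%, 6.48, 12.4 and −16.0. The cause was not tested. Of the 23 gene lists, 21 kept the sign of their difference within 20 kb of a gene and at a −log10 q of at least 5, a setting added after seeing the data. The exceptions were erythroid and housekeeping genes. Among the strongest 20000 sites, which held few cell-type-only sites, 16 lists had a difference of 0, and 4 changed sign: quiescence and dormancy to −1.22 points, lymphoid priming to 0.84, macrophage and dendritic cell markers to 1.40 and the fetal stem cell programme from −3.38 to 5.26, with intervals that include 0 at both settings. No paired analysis was possible because the authors gave 1 pooled list per group, so no replicate could be left out. Depth is unknown, and a weak site missed in 1 list cannot be told from a site without the mark.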

Other observations

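Of the 23 list genes with a peak of 1 cell type alone within 1 kb of the start, 5 had their sites on the side of that cell type, 5 on the other side and 13 on neither. Cdk6 had 36 HPC-only and 2 HSC-only sites but an HSC peak alone within 1 kb of its start. Prdm16 had 47 HSC-only and 2 HPC-only sites but an HPC peak alone within 1 kb of its start. Rora had 39 HSC-only and 15 HPC-only sites and Gata3, a T cell transcription factor, had 7 and 1. Both had an HPC peak alone within 1 kb of the start. Epha7, an ephrin receptor, had 1 and 4 with an HSC peak alone within 1 kb. Of these 5 genes, only Rora had its 300-base window on a cell-type-only peak. For the rest, the peak near the start could still overlap a site of the other cell type farther out. These genes were picked after their values were seen, and the difference between start and locus was not tested.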
